A study of Arabidopsis thaliana with 8 samples.

Results

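Leaves of the pif4-2 pif5-3 double mutant were compared with leaves of the Col-0 wild type after both had been through the same heat treatment and recovery. The comparison rests on 4 of the 8 RNA sequencing libraries of the study, 2 from each genotype, and on the 16831 genes, of 34354 rows in the table, that reached 1 FPKM in 2 or more of the 8 libraries. FPKM are fragment counts divided by transcript length and by the total mapped in the library. No value of the mutant or the wild type was used to choose the libraries, which were taken from their labels.

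The wild-type heat group was Col-0, an Arabidopsis thaliana ecotype, and the mutant heat group was homozygous for pif4-2 and pif5-3 in the Col-0 background. Plants of both groups were grown on soil at 22 °C to an age of 3 weeks, kept at 42 °C for 5 h and returned to growth for 3 days. The rosette leaves numbered 3 and 4 were then taken, at a stage that the design text describes as yellowing at the leaf edge. The 4 mock libraries, 2 of each genotype, came from plants of the same stated age that the labels call mock-treated, and whether these leaves were as old at harvest cannot be told from the labels. The design text calls the 2 libraries of a group biological replicates but does not say whether leaves were pooled, and a single allele combination stood for the loss of both genes.

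PIF4 and PIF5 are members of a small family of basic helix-loop-helix proteins, the phytochrome-interacting factors, which bind G-box elements in promoters and are destabilised by light through phytochrome. They drive elongation growth in shade and warmth, in large part through auxin, and are known in Arabidopsis as promoters of dark- and age-induced leaf senescence. Leaf senescence is the ordered dismantling of a leaf, in which chlorophyll and the photosynthetic apparatus are broken down and nitrogen is exported, under the control of NAC and WRKY transcription factors and of ethylene, abscisic acid, jasmonate and salicylic acid.

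The 4 heat libraries held 16852240 to 21847883 recovered reads, and between 16016 and 16348 genes reached 1 FPKM in them. Values are FPKM in each library, wild type first, and differences are mutant minus wild type on the log2(FPKM + 1) scale ± SE, on which changes of weakly expressed genes come out too small. P-values are from limma, adjusted by Benjamini-Hochberg over all 16831 genes, and a gene was called when the adjusted value was below 0.05. These p-values set each difference against the spread within groups, pooled across the groups and moderated across genes. With 2 libraries a group, that spread rests on 4 residual degrees of freedom for each gene. Leaf mesophyll markers summed to 18748 and 19656 FPKM in the wild type and 19926 and 20677 FPKM in the mutant. Those of guard cells (62.1 to 62.6 against 63.4 to 68.1 FPKM), vasculature (559 to 567 against 633 to 660 FPKM) and epidermis (286 to 297 against 243 to 249 FPKM) did not overlap between the genotypes either, and the root markers summed to 11.2 to 13.6 against 8.51 to 8.64 FPKM, mainly through PHT1;1 (2.93 and 1.41 against 0.0455 and 0 FPKM). Of single genes, 10994 of the 16831 tested likewise did not overlap between the genotypes after heat. The members of a list did not all move together. Among 5 measured guard cell genes 1 was called higher and 1 lower, and among 5 epidermis genes 1 higher and 2 lower. Among 5 mesophyll genes 2 were higher and 1 lower. Among 6 vascular genes 1 was higher and 0 lower, and among 2 root genes 0 higher and 1 lower. These marker counts moved with the processing. Without an intensity trend in the model, 0 guard cell genes were higher and 1 lower, and the epidermis counts were the same. Under quantile scaling 0 mesophyll genes were higher and 1 lower. The part of these markers in the results was not tested. The meristem genes STM, CUC2 and WUS were at 0 in all 4 libraries, and all 4 flower markers were below 1 FPKM. Whether reads were counted by strand is not given, so the levels of CAB1, PIF7, PIF1, CKX5, ATAF2, VNI2, WRKY53, PAO, PORB, CHLM, PORC, LHCB3, TPI, HSP101, HSFA1B, CYP71A13, WRKY40, ABI1, CHS, TT19, DIN10, NBR1, FER4, ARR6, EARLI1 and ORA47, each of which overlaps another annotated gene, may include reads of that gene. Fewer cells of a type and less RNA per cell cannot be told apart in such leaves.

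Loss of PIF4 and PIF5 was accompanied, after heat, by lower expression of a large set of stress and senescence genes and by slightly higher expression of many photosystem genes. Of the 16831 genes, 4814 were called, which is 28.6%. In the mutant 1855 genes (11%) were higher and 2959 (17.6%) were lower. These shares are the background for each count of list members after heat. Of the tested genes 246 reached 1 FPKM in the wild-type heat libraries alone, so that they could hardly be other than lower. Of these, 225 were among the lower calls. Lists that hold at least 2 such members are given with and without them, as are some that hold 1. The lists were chosen with earlier results of these data known, so their counts describe the members and do not test a class of genes. The large differences were more one-sided, with 95 genes (0.564%) higher and 454 (2.7%) lower by at least 2-fold, 16 higher and 102 lower by at least 4-fold, and 4 higher and 51 lower by at least 8-fold. The split of all calls moved with the scaling of the libraries. Higher calls made up 38.5% of calls on the deposited scale, 48.4% after median-of-ratios scaling (2334 higher, 2488 lower) and 54.8% after quantile scaling (2681 higher, 2207 lower). Among genes changed by at least 2-fold the split stayed on the same side, with 103 higher and 436 lower, and 125 higher and 402 lower, under the same scalings.

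**Figure D1:**
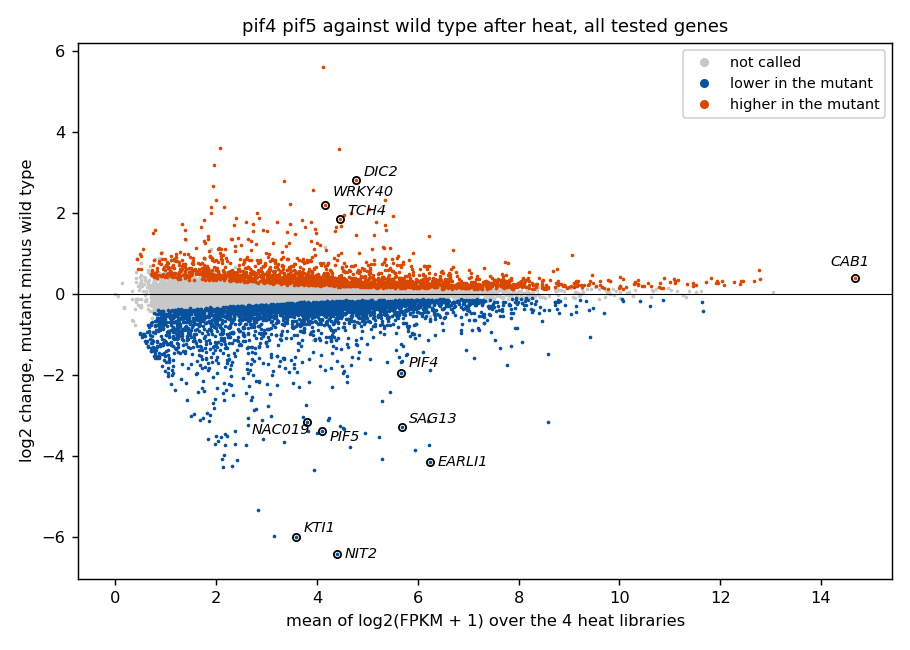
Difference between the mutant and the wild type after heat for the 16831 tested genes, against mean expression in the 4 heat libraries; both axes are on the log2(FPKM + 1) scale and each point is a gene, coloured where it was called. The lower side reaches -6.43 at NIT2, while DIC2, WRKY40 and TCH4 lie between 1.84 and 2.80 on the higher side and CAB1, the most abundant transcript marked, lies at 0.39.

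The loss of both genes was checked before other genes. PIF4 (AT2G43010) was at 97.2 and 101 FPKM in the wild type and 25.6 and 23.8 FPKM in the mutant, a difference of -1.96 ± 0.05, adjusted p = 9.5e-11. PIF5 (AT3G59060) was at 54.3 and 54.9 FPKM in the wild type and 4.74 and 3.98 FPKM in the mutant, a difference of -3.38 ± 0.087, adjusted p = 1.0e-10. The libraries of the genotypes did not overlap for either gene, which was so after heat for 10994 of all 16831 tested genes. Similar differences were measured in mock (-1.94 for PIF4 and -3.42 for PIF5), so both genes went with their labels in all 8 libraries. HFR1, which encodes an atypical basic helix-loop-helix protein that binds and restrains PIFs, was at 7.31 and 7.15 FPKM in the wild type and 0.0961 and 0 FPKM in the mutant, so that it was close to 0 in the mutant (-2.97 ± 0.12, adjusted p = 3.4e-09). Of the 17 measured genes of the PIF and light-signalling list, 3 were higher and 5 lower. Beside the 3 genes above, PIF3 (-0.42) and the photoreceptor gene PHYA (-0.27) were lower. Transcripts of the related factor PIF7 were higher, with 17.7 and 17.4 FPKM in the wild type and 24.4 and 23.7 FPKM in the mutant (0.43 ± 0.077, adjusted p = 0.0013). PAR1, another atypical helix-loop-helix gene, was also higher (0.62), while PIF1 (-0.056), PHYB (-0.10) and HY5 (-0.29), which encodes a zipper protein that opposes PIFs, were not called. Without the first mutant heat library or without the second wild-type heat library, 3 members of this list in place of 5 were lower.

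Growth genes that PIFs are known to induce did not move together after heat. Called members numbered 4 higher and 4 lower of 14, around a median of 0.10 against -0.035 over all tested genes. In mock 9 of the same 14 were lower and 0 were higher, beside 7.69% and 13% of all genes. IAA29, an Aux/IAA repressor gene and a standard PIF target, was at 2.15 and 2.84 FPKM in the wild type and 1.07 and 1.33 FPKM in the mutant, a difference of -0.66 ± 0.13, adjusted p = 0.0022. The IAA29 difference was much larger in mock, where the means were 15.3 and 1.33 FPKM (-2.80), and the interaction was called (2.14 ± 0.18, adjusted p = 4.6e-06). ST2A, a sulfotransferase gene, was lower (-1.13 ± 0.15, adjusted p = 1.0e-04), as was the cytokinin oxidase gene CKX5 (-0.71 ± 0.14, adjusted p = 0.0028). ST2A reached 1 FPKM in wild-type heat alone, and of the other 13 members 4 were higher and 3 lower. With a minimum of 5 FPKM, 8 members were measured, of which 4 were higher and 1 lower, with a median of 0.22. The homeodomain-zipper gene HAT3 was higher, at 7.31 and 8 FPKM in the wild type and 10.4 and 10.7 FPKM in the mutant (0.42 ± 0.087, adjusted p = 0.0033), and its relatives ATHB2 (0.25), HAT1 (0.25) and HAT2 (0.27) were higher too. The number of higher members in this list was 1 when the second mutant heat library or the first wild-type heat library was left out, and 2 without either of the other heat libraries, when only the heat groups were fitted or with no expression minimum.

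Among auxin response genes 8 of 20 were higher and 7 lower, and the members of each side were of different kinds. The 8 higher members were all Aux/IAA repressor genes, from 0.35 for IAA4 to 0.52 for IAA6, with IAA2 at 57.2 and 56.9 FPKM in the wild type and 79.6 and 80.6 FPKM in the mutant (0.48 ± 0.042, adjusted p = 4.1e-06). The lower side held the nitrilase genes and the GH3 genes, whose products conjugate auxin to amino acids. NIT2, a nitrilase gene, showed the largest difference towards lower values among the genes named here, at 177 and 216 FPKM in the wild type and 1.31 and 1.24 FPKM in the mutant (-6.43 ± 0.12, adjusted p = 6.3e-12). Its level was near 0 in mock in both genotypes, at means of 0.312 and 0.61 FPKM. NIT1, next to it on the chromosome and similar in sequence, was at 641 and 648 FPKM in the wild type and 230 and 226 FPKM in the mutant (-1.50 ± 0.037, adjusted p = 9.0e-11), and was also lower in mock (-1.29). Reads shared between the nitrilase copies could move between them. GH3.6 was at 7.17 and 6.85 FPKM in the wild type and 1.62 and 1.97 FPKM in the mutant (-1.52 ± 0.11, adjusted p = 9.2e-07), and GH3.3 (-1.19) and GH3.5 (-0.41) were lower as well. In mock 15 of the 20 auxin genes were lower in the mutant and 0 were higher. Of all tested genes 7.69% were lower and 13% higher in mock on the deposited scale. For 13 of the 20 the interaction was called towards higher values, beside 10.3% of all genes.

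More transcription factors of leaf senescence were lower in the mutant than higher, led by stress-related NAC and WRKY genes. Of 25 measured members, 14 were lower and 6 higher, with a median of -0.35. NAC019, which encodes a NAC factor of abscisic acid and jasmonate responses, was at 39.5 and 42.3 FPKM in the wild type and 3.4 and 3.92 FPKM in the mutant (-3.17 ± 0.10, adjusted p = 7.8e-10). The mutant libraries sat at the level of the mock leaves, whose means were 3.27 FPKM for the wild type and 3.58 FPKM for the mutant. NAC047 was at 14 and 15.7 FPKM in the wild type and 1.43 and 2.02 FPKM in the mutant (-2.55 ± 0.15, adjusted p = 1.2e-07). WRKY45, a positive regulator of age-triggered senescence, was at 16.5 and 15.1 FPKM in the wild type and 3.84 and 3.19 FPKM in the mutant (-1.90 ± 0.12, adjusted p = 2.4e-07), and WRKY6 was at 17.4 and 16.3 FPKM in the wild type and 4.52 and 5.14 FPKM in the mutant (-1.62 ± 0.11, adjusted p = 6.2e-07). WRKY75 (-2.21), NAC055 (-0.86) and NAC072 (-0.50) were lower too.

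The central senescence regulators showed smaller differences. ORE1, a NAC gene that acts downstream of ethylene signalling, was at 7.67 and 9.43 FPKM in the wild type and 4.71 and 5.47 FPKM in the mutant (-0.65 ± 0.11, adjusted p = 0.0012), and its interaction was not called. NAP, a NAC gene of the abscisic acid branch, was at 3.22 and 2.99 FPKM in the wild type and 2.45 and 1.8 FPKM in the mutant (-0.40 ± 0.14, adjusted p = 0.047); this call was lost in 12 of 16 alternatives, where the adjusted p ranged up to 0.29. NAC016 (-0.049), ATAF2 (0.083) and VNI2 (0.049) were not called. The higher members were WRKY53 (0.42), WRKY54 (0.52) and WRKY70 (0.58), which act in salicylic acid signalling, together with WRKY22 (0.56), RAV1 (0.61) and CBF2. CBF2, which encodes a cold-response activator, was at 4.46 and 4.78 FPKM in the wild type and 11.7 and 9.09 FPKM in the mutant (1.01 ± 0.11, adjusted p = 2.7e-05). Both mutant libraries lay above both wild-type libraries for CBF2 after heat, and below them in mock (-0.68).

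Promoter sequence was read for the tested genes because PIFs bind the G-box, spelled CACGTG, and the PBE-box, spelled CACATG or CATGTG on the other strand. In the 300 bases before the annotated start, 8.08% of 16627 tested genes held a G-box. The share was 10.2% for genes lower in the mutant after heat, 13.2% (59 of 447) for those lower by at least 2-fold, 7.62% for higher genes and 9.09% for those higher by at least 2-fold. PBE-boxes were in 12.6% of all promoters, 13% of those of lower genes and 14.3% of those of higher genes. For differences of at least 2-fold the PBE-box shares were 13.9% (62 of 447) for lower and 17% (15 of 88) for higher genes. The stretches shown belong to genes that differed strongly and hold a G-box, and were chosen after their values were seen. They are RefSeq sequence of the TAIR10.1 assembly, 5′ to 3′ and ending at the base before the annotated start, all on the minus strand, with the matches in capitals. NAC019 is at chr1:19698483-19698632, CBF2 at chr4:13016236-13016435, DFR at chr5:17166033-17166182 and RD20 at chr2:14146556-14146705.
NAC019: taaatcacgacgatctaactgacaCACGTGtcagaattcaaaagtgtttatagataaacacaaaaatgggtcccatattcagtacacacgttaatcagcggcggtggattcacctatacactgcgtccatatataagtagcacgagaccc
CBF2: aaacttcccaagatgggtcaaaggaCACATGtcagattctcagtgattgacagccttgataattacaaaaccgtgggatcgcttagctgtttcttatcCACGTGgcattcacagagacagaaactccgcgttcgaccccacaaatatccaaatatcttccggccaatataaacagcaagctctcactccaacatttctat
DFR: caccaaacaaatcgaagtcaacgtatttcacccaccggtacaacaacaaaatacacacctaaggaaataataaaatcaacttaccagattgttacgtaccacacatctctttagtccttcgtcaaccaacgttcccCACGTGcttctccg
RD20: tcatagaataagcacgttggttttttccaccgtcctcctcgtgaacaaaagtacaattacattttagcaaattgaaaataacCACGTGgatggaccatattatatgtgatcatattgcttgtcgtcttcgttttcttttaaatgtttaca
The first base of the G-box lay 126 bases before the start in NAC019, 102 in CBF2, 14 in DFR and 68 in RD20, and CBF2 also held a PBE-box at 175. A match is a description of the letters and not evidence of binding. NAC019, DFR and RD20 were lower in the mutant and CBF2 was higher, so the element was present on both sides. SAG113, IAA29, SAG13, NIT2, EARLI1, ORE1 and TCH4 held neither element in this window.

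Most of the classical senescence-associated genes listed here were lower in the mutant after heat. Of 17 measured members, 11 were lower and 2 higher, with a median of -0.72, beside 17.6% lower, 11% higher and a median of -0.035 over all tested genes. Of these members 4 reached 1 FPKM in wild-type heat alone, and of the other 13 members 7 were lower and 2 higher, with a median of -0.32. SAG13, which encodes a short-chain dehydrogenase, was at 158 and 160 FPKM in the wild type and 15.5 and 15.3 FPKM in the mutant (-3.28 ± 0.12, adjusted p = 1.4e-09); it lies in a cluster of similar genes, among which reads could be shared. SRG1, an oxidoreductase gene, was at 16.9 ± 1.95 FPKM (SD, n = 2) in the wild type and 0.03 and 0.233 FPKM in the mutant (-3.98 ± 0.15, adjusted p = 1.6e-09). RNS1, a ribonuclease gene induced by phosphate shortage and wounding, was at 14 and 14 FPKM in the wild type and 0.368 and 0.371 FPKM in the mutant (-3.46 ± 0.13, adjusted p = 2.3e-09). For these 3 genes the wild-type libraries stood far above the mutant libraries. SRG1 and RNS1 reached 1 FPKM in wild-type heat alone, so these 2 genes could hardly be other than lower. BCB, a copper protein gene, was at 193 and 207 FPKM in the wild type and 76 and 76.6 FPKM in the mutant (-1.38 ± 0.057, adjusted p = 4.4e-09), and SAG113, a type 2C protein phosphatase gene of abscisic acid signalling, was at 2.69 and 3.76 FPKM in the wild type and 0.169 and 0.0937 FPKM in the mutant (-1.89 ± 0.15, adjusted p = 2.0e-06). The limit given for SRG1 and RNS1 holds for SAG113 too.

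Several senescence markers did not follow. SAG12, the cysteine protease gene that marks late age-dependent senescence, was at 0 in all 8 libraries. BFN1 (-0.27), SAG101 (-0.038) and SARK (0.17) were not called, and SAG20 (0.38) and the dark-inducible gene SEN1 (0.52) were higher in the mutant. In mock the direction of the list was the other way round, with 9 of 17 members higher in the mutant and 2 lower. Of all tested genes 13% were higher and 7.69% lower in mock on the deposited scale. The interaction was called towards lower values for 13 members, beside 21.6% of all genes.

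**Figure D2:**
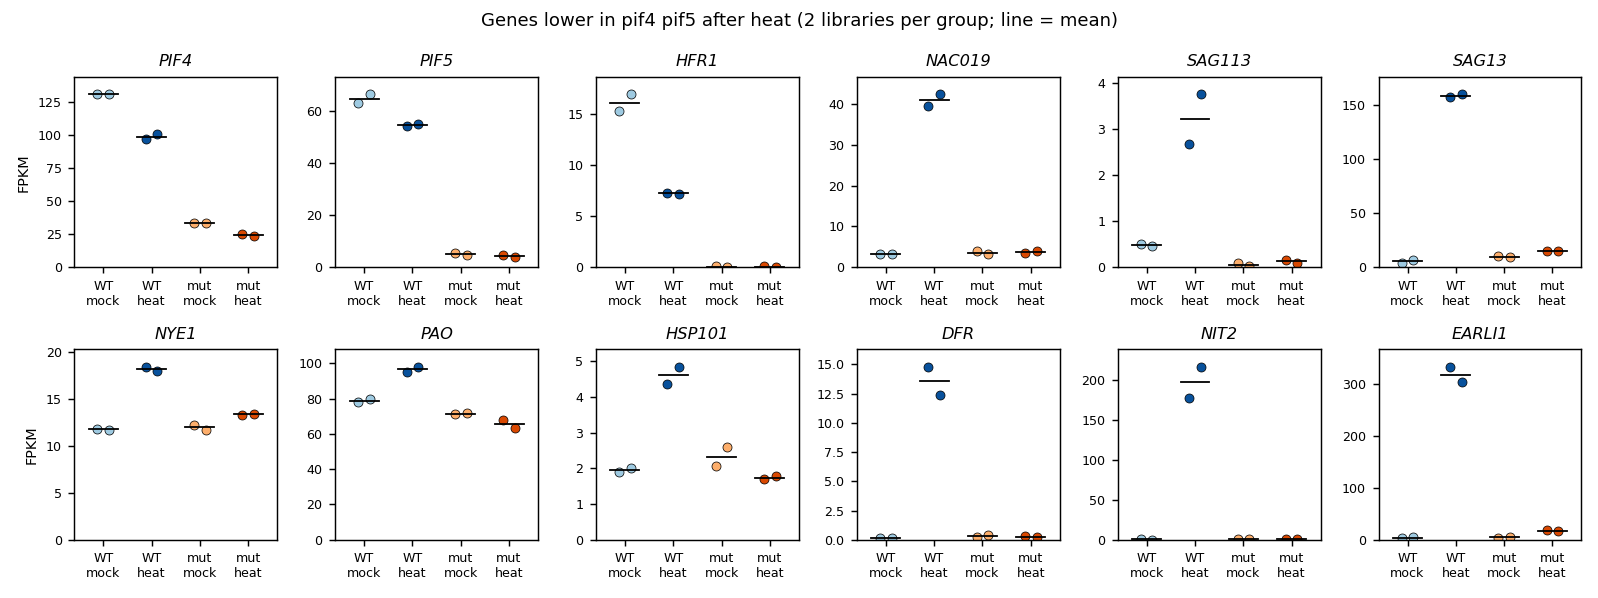
FPKM of 12 genes that were lower in the mutant after heat, in each of the 8 libraries; points are libraries, the line is the mean of 2, and each vertical axis starts at 0. PIF4, PIF5 and HFR1 were lower in the mutant in both conditions, while NAC019, SAG13, DFR, NIT2 and EARLI1 were high in the 2 wild-type heat libraries and far lower in the mutant heat libraries.

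Most genes of chlorophyll breakdown were modestly lower in the mutant. Of 12 measured members, 7 were lower and 0 higher, with a median of -0.36; after quantile scaling 8 were lower and 2 higher. NYE2, a STAY-GREEN gene, was at 16 and 17.3 FPKM in the wild type and 4.86 and 4.94 FPKM in the mutant (-1.58 ± 0.093, adjusted p = 1.1e-07). NYE1, the main STAY-GREEN gene, whose product removes magnesium from chlorophyll, was at 18.4 and 18 FPKM in the wild type and 13.3 and 13.4 FPKM in the mutant (-0.42 ± 0.068, adjusted p = 5.9e-04). PAO, which encodes the oxygenase that opens the chlorin ring, was at 95.3 and 98.1 FPKM in the wild type and 67.9 and 63.3 FPKM in the mutant (-0.55 ± 0.047, adjusted p = 3.2e-06). The libraries did not overlap for any of these genes, as for 10994 of all 16831 tested genes. The mock means were nearly the same in both genotypes for NYE1 (11.7 and 12 FPKM). CYP89A9, a P450 gene of chlorophyll catabolite modification, was lower (-0.81 ± 0.056, adjusted p = 4.9e-07), as were the chlorophyllase gene CLH1 (-0.49 ± 0.053, adjusted p = 2.2e-05) and the pheophytinase gene PPH (-0.35). The chlorophyll b reductase genes NYC1 (-0.082) and NOL (0.15) were not called.

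Chlorophyll synthesis genes went the other way by small amounts. Higher values were called for 8 of 16 measured members and lower values for 0, around a median of 0.12. PORB, encoding a light-dependent protochlorophyllide oxidoreductase, was at 621 and 599 FPKM in the wild type and 751 and 766 FPKM in the mutant (0.31 ± 0.04, adjusted p = 9.7e-05). CHLM, the methyltransferase gene of the magnesium branch, was at 289 and 284 FPKM in the wild type and 337 and 334 FPKM in the mutant (0.22 ± 0.038, adjusted p = 8.2e-04), and PORC was at 144 and 140 FPKM in the wild type and 163 and 168 FPKM in the mutant (0.22 ± 0.041, adjusted p = 0.0019). HEMB1, an early gene of the pathway, was at 85.6 and 84.3 FPKM in the wild type and 104 and 98 FPKM in the mutant (0.24 ± 0.046, adjusted p = 0.0019). The first regulated step, HEMA1 (0.0013), and the magnesium chelatase gene CHLH (-0.021) were not called. The number of higher members was 4 without an intensity trend in the model and 5 without the first mutant heat library or without either wild-type heat library.

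Nuclear genes of the light-harvesting complexes and photosystems were mostly higher in the mutant after heat on the deposited scale, by small amounts. Higher values were called for 32 of 38 measured members and a lower value for 1, around a median of 0.27; after quantile scaling 19 were higher and 2 lower, with a median of 0.092. The list made up 17.6% and 17.8% of all FPKM in the wild-type heat libraries and 21.3% and 21.4% in the mutant heat libraries. LHB1B1, a gene of the main light-harvesting protein of photosystem II, was at 5714 and 5756 FPKM in the wild type and 8525 and 8654 FPKM in the mutant (0.58 ± 0.051, adjusted p = 3.8e-06). CAB3, a member of the same gene family, whose near-identical copies could share reads, was at 3074 and 3202 FPKM in the wild type and 4064 and 4142 FPKM in the mutant (0.39 ± 0.044, adjusted p = 4.0e-05). CAB1 alone held 22530 and 23409 FPKM in the wild type and 30198 and 30122 FPKM in the mutant. FD2, the main leaf ferredoxin gene, was at 875 and 917 FPKM in the wild type and 1213 and 1186 FPKM in the mutant (0.42 ± 0.039, adjusted p = 6.8e-06), and LHCB3 was at 3726 and 3762 FPKM in the wild type and 4599 and 4709 FPKM in the mutant (0.31 ± 0.043, adjusted p = 1.6e-04), a difference of 0.062 with an adjusted p of 0.13 after quantile scaling.

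Among the LHCB2 genes of the same antenna, LHCB2.2 was called (0.17) and LHCB2.1 was not, at 1891 and 1918 FPKM in the wild type and 2061 and 2110 FPKM in the mutant (0.13 ± 0.058, adjusted p = 0.12). LHCB2.1 was called when only the heat libraries were fitted and turned to -0.047 after quantile scaling. The single lower member was ELIP1, an early light-induced protein gene that is not part of the antenna, at 1.86 and 2.52 FPKM in the wild type and 0.133 and 0.115 FPKM in the mutant (-1.50 ± 0.15, adjusted p = 1.4e-05). ELIP1 reached 1 FPKM in wild-type heat alone, so it could hardly be other than lower. Of the other 37 members 32 were higher and 0 lower. In mock 28 of the 38 genes were lower in the mutant and 0 higher, with a median of -0.19. Of all tested genes 7.69% were lower and 13% higher in mock on the deposited scale. The interaction was called towards higher values for 36 members, beside 10.3% of all genes. Of the carbon fixation genes, 7 of 19 were higher and 2 lower, around a median of 0.055. Over all tested genes 11% were higher and 17.6% lower after heat. TPI, triosephosphate isomerase, was at 203 and 207 FPKM in the wild type and 239 and 233 FPKM in the mutant (0.20 ± 0.037, adjusted p = 0.0016), and the aldolase gene FBA1 was at 451 and 451 FPKM in the wild type and 390 and 391 FPKM in the mutant (-0.21 ± 0.042, adjusted p = 0.0028). RBCS1A, the main Rubisco small subunit gene, was at 8091 and 8596 FPKM in the wild type and 8460 and 8830 FPKM in the mutant (0.052 ± 0.049, adjusted p = 0.48). After quantile scaling 5 were higher and 4 lower, and between 1 and 4 members of this list were higher when the trend was dropped or a heat library was left out.

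Many heat shock genes, 3 days after the treatment, were lower in the mutant. Of 35 measured members, 16 were lower and 2 higher, with a median of -0.31; the count was 4 higher and 16 lower under median-of-ratios and quantile scaling. Without the 5 members that reached 1 FPKM in wild-type heat alone, 11 of 30 were lower and 2 higher, with a median of -0.15. HSP18.2, a cytosolic small heat shock protein gene, was at 12.7 and 16.1 FPKM in the wild type and 2.39 and 2.49 FPKM in the mutant (-2.16 ± 0.13, adjusted p = 1.6e-07). HSP17.6A was at 8.23 and 9.14 FPKM in the wild type and 0 and 0.336 FPKM in the mutant (-3.06 ± 0.19, adjusted p = 1.4e-07), and AT1G53540, annotated as an HSP20-like chaperone, was at 24.2 and 22.2 FPKM in the wild type and 2.03 and 1.91 FPKM in the mutant (-3.02 ± 0.12, adjusted p = 3.2e-09). These small chaperone genes were below 1 FPKM in the mock means of both genotypes, and the wild-type heat libraries were the highest. HSP17.6A reached 1 FPKM in wild-type heat alone, so it could hardly be other than lower. HSP70 (AT3G12580) was at 23.6 and 25 FPKM in the wild type and 7.43 and 7.04 FPKM in the mutant (-1.62 ± 0.083, adjusted p = 3.1e-08).

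HSP101, the disaggregase needed for acquired thermotolerance, was at 4.36 and 4.84 FPKM in the wild type and 1.7 and 1.78 FPKM in the mutant (-1.03 ± 0.12, adjusted p = 5.2e-05). HSFB1, a class B heat shock factor gene, was at 40.1 and 39.1 FPKM in the wild type and 17.4 and 17.6 FPKM in the mutant (-1.14 ± 0.063, adjusted p = 6.5e-08), and HSFA2, the factor that prolongs acquired thermotolerance, was lower too (-1.32). The constitutive factors HSFA1A (-0.14), HSFA1B (-0.16) and HSFA1D (0.018) and the constitutive chaperone gene HSC70-1 (0.047) were not called. The higher members were HSFA4A (0.30) and BIP3 (0.87), an endoplasmic reticulum chaperone gene of the unfolded protein response. With a minimum of 5 FPKM, 23 members were measured, of which 9 were lower.

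Salicylic acid and defence genes were split, with 8 of 21 lower and 5 higher and a median of -0.0087. PR1, the marker of salicylic acid defence, was at 394 and 402 FPKM in the wild type and 117 and 119 FPKM in the mutant (-1.75 ± 0.10, adjusted p = 1.3e-07), although in mock it was higher in the mutant, at means of 21.1 and 70.3 FPKM (1.70). The camalexin synthesis genes PAD3, at 42.9 and 44 FPKM in the wild type and 13 and 15.3 FPKM in the mutant (-1.55 ± 0.092, adjusted p = 1.2e-07), and CYP71A13, at 8.31 and 6.69 FPKM in the wild type and 1.65 and 1.19 FPKM in the mutant (-1.81 ± 0.14, adjusted p = 1.8e-06), were lower. ICS1 (0.0097), the isochorismate synthase gene of salicylic acid synthesis, was not called, while EDS1 (0.39) and PAD4 (0.29) were higher. WRKY40, a WRKY gene that responds within minutes to many stresses, was the highest member, at 7.42 and 7.28 FPKM in the wild type and 41.1 and 34 FPKM in the mutant (2.20 ± 0.10, adjusted p = 1.1e-08). In mock 17 of these 21 genes were higher in the mutant and 0 lower, beside 13% and 7.69% of all genes on the deposited scale. Without the second mutant heat library the heat count was 5 lower and 3 higher.

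Jasmonate genes were lower in the mutant or not called, with 1 exception. Of 19 measured members, 7 were lower and 1 higher, with a median of -0.13. PDF1.2, a defensin gene induced by jasmonate with ethylene, was at 290 and 251 FPKM in the wild type and 22.3 and 17.1 FPKM in the mutant (-3.72 ± 0.11, adjusted p = 3.3e-10). Its close relatives PDF1.2c, at 164 and 156 FPKM in the wild type and 10.3 and 7.04 FPKM in the mutant (-4.08 ± 0.16, adjusted p = 2.3e-09), and PDF1.3, at 74.2 and 63.8 FPKM in the wild type and 2.44 and 2.39 FPKM in the mutant (-4.35 ± 0.21, adjusted p = 1.6e-08), were lower as well, and reads could be shared among them. VSP1, a storage protein gene of the wounding branch, was at 11.3 and 14.3 FPKM in the wild type and 3.26 and 3.2 FPKM in the mutant (-1.70 ± 0.11, adjusted p = 3.2e-07). In all of these the mutant libraries lay below both wild-type libraries. Libraries of the genotypes did not overlap, in either direction, for 10994 of all 16831 tested genes. The differences were 0.0074 for AOS, 0.045 for OPR3 and 0.19 for the repressor gene JAZ1, which was not called either, and the lipoxygenase genes LOX2 (-0.48) and LOX3 (-0.40) were lower.

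Abscisic acid and dehydration genes were mostly lower in the mutant. Of 24 measured members, 19 were lower and 2 higher, with a median of -0.56. Without the 2 members that reached 1 FPKM in wild-type heat alone, 17 of 22 were lower and 2 higher, with a median of -0.52. RD29A, a dehydration and cold marker, was at 90.9 and 93.4 FPKM in the wild type and 31.3 and 32.8 FPKM in the mutant (-1.49 ± 0.076, adjusted p = 3.0e-08), and the difference was of the same size in mock (-1.45). COR15A, a chloroplast protective protein gene, was at 76.9 and 74.5 FPKM in the wild type and 37.3 and 42 FPKM in the mutant (-0.92 ± 0.061, adjusted p = 3.3e-07), and its difference was larger in mock (-1.91). The phosphatase genes of the core receptor pathway, HAI2 (-1.51), HAB1 (-0.97), ABI2 (-0.82) and ABI1 (-0.53), were lower together with SAG113. The genes of abscisic acid breakdown were split. CYP707A1 was lower, at 6.7 and 6.82 FPKM in the wild type and 0.958 and 0.809 FPKM in the mutant (-2.04 ± 0.13, adjusted p = 2.0e-07), and CYP707A3 was higher, at 0.727 and 0.853 FPKM in the wild type and 7.75 and 6.04 FPKM in the mutant (2.13 ± 0.14, adjusted p = 2.2e-07). NCED3, the rate-limiting synthesis gene, was not called (-0.19).

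Ethylene genes were also split, with 3 of 14 higher and 5 lower, beside 11% and 17.6% of all tested genes. The synthase gene ACS6 was at 7.93 and 7.8 FPKM in the wild type and 25.6 and 26.5 FPKM in the mutant (1.61 ± 0.074, adjusted p = 1.2e-08), whereas the synthase gene ACS2 was at 2.46 and 2.7 FPKM in the wild type and 0.049 and 0.19 FPKM in the mutant (-1.68 ± 0.14, adjusted p = 2.5e-06). ACS2 reached 1 FPKM in wild-type heat alone, so it could hardly be other than lower. Of the other 13 members 3 were higher and 4 lower. ERF6 was at 6.93 and 6.96 FPKM in the wild type and 28.7 and 24.1 FPKM in the mutant (1.78 ± 0.11, adjusted p = 1.4e-07), and ERF5, its closest relative, was at 5.11 and 5.06 FPKM in the wild type and 21.6 and 16.8 FPKM in the mutant (1.72 ± 0.12, adjusted p = 5.0e-07). Both ERF genes encode fast stress-responsive regulators of leaf growth. The master regulator gene EIN2 (-0.29) was lower and EIL1 (-0.064) was not called. The lower count was 3 under quantile scaling, without the trend, and without the first mutant heat library or either wild-type heat library.

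The measured genes of the anthocyanin and flavonoid pathway were lower in the mutant with 1 exception, and the count depends on the expression minimum. Of its 25 members 14 were measured, of which 13 were lower and 1 higher, with a median of -1.81; 12 were lower under median-of-ratios or quantile scaling. Among the 14, 5 reached 1 FPKM in the wild-type heat libraries alone, and of the other 9 members 8 were lower and 1 higher, with a median of -1.16. With no minimum, 14 of 23 members were lower and 1 higher, with a median of -0.76. DFR, the first enzyme gene committed to anthocyanin, was at 14.8 and 12.4 FPKM in the wild type and 0.331 and 0.195 FPKM in the mutant (-3.53 ± 0.14, adjusted p = 3.1e-09). CHS, chalcone synthase, the entry enzyme, was at 26.3 and 24.5 FPKM in the wild type and 0.968 and 1.5 FPKM in the mutant (-3.57 ± 0.14, adjusted p = 2.5e-09). TT19, a glutathione transferase gene needed to move anthocyanin to the vacuole, was at 14.7 and 12.4 FPKM in the wild type and 0.0835 and 0.271 FPKM in the mutant (-3.63 ± 0.14, adjusted p = 2.6e-09). The mutant libraries of these 3 genes were at 1.5 FPKM or less. They did not overlap with the wild type, as for 10994 of all 16831 tested genes. DFR and TT19 reached 1 FPKM in wild-type heat alone, so these 2 genes could hardly be other than lower. C4H of the upstream phenylpropanoid pathway was at 91.6 and 89.1 FPKM in the wild type and 27 and 28.1 FPKM in the mutant (-1.68 ± 0.055, adjusted p = 7.8e-10), and the regulator gene PAP1 was lower too (-2.08). The higher member was MYBL2 (0.44), which encodes a repressor of the pathway. F3H, FLS1 and TT8 were among the members that stayed under the expression minimum.

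Glucosinolate genes, 4 of 22 higher and 11 lower, differed by step; 7 were lower without the trend. The myrosinase genes, whose products break glucosinolates down, were higher, TGG1 at 405 and 365 FPKM in the wild type and 724 and 762 FPKM in the mutant (0.95 ± 0.049, adjusted p = 3.4e-08) and TGG2 at 74.9 and 65.9 FPKM in the wild type and 146 and 155 FPKM in the mutant (1.09 ± 0.064, adjusted p = 1.1e-07). In mock TGG2 was lower in the mutant (-0.86). NSP5, a nitrile specifier gene, was at 87.7 and 95 FPKM in the wild type and 28.6 and 27.6 FPKM in the mutant (-1.66 ± 0.058, adjusted p = 1.1e-09), and ESM1, which modifies the breakdown products, was at 339 and 311 FPKM in the wild type and 181 and 177 FPKM in the mutant (-0.86 ± 0.047, adjusted p = 6.3e-08). Most synthesis genes were slightly lower or not called, between -0.41 for CYP79B2 and 0.21 for CYP79B3.

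Of 18 measured genes of nitrogen remobilisation 10 were lower in the mutant and 2 higher, with a median of -0.32. There were 4 higher under median-of-ratios or quantile scaling, and 9 lower without any one of the heat libraries. Without the 1 member that reached 1 FPKM in wild-type heat alone, 9 of 17 were lower and 2 higher, with a median of -0.24. DIN2, a dark-inducible glycosidase gene, was at 17.5 and 19.1 FPKM in wild-type heat and was listed at 0 in both mutant heat libraries. GLN1;3, a cytosolic glutamine synthetase gene, was at 33.3 and 30.7 FPKM in the wild type and 12.5 and 11.5 FPKM in the mutant (-1.34 ± 0.077, adjusted p = 9.6e-08), and GDH2, glutamate dehydrogenase, was at 28.2 and 27.3 FPKM in the wild type and 12.5 and 11.7 FPKM in the mutant (-1.13 ± 0.07, adjusted p = 1.7e-07). NRT1.7, which loads nitrate into the phloem of old leaves, was at 160 and 157 FPKM in the wild type and 85.7 and 82.5 FPKM in the mutant (-0.91 ± 0.047, adjusted p = 3.9e-08). GLN1;4 (0.67) and DIN10 (0.27) were higher.

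Of 19 autophagy genes 5 were lower and 2 higher, with a median of -0.11; none was higher without the first mutant heat library, either wild-type heat library, the trend or the expression minimum, where 4 to 6 were lower. Over all tested genes 17.6% were lower and 11% higher. NBR1, the receptor for ubiquitinated aggregates, was at 233 and 239 FPKM in the wild type and 175 and 174 FPKM in the mutant (-0.43 ± 0.039, adjusted p = 4.9e-06). ATG8H was at 17.7 and 18 FPKM in the wild type and 11.6 and 11.7 FPKM in the mutant (-0.58 ± 0.10, adjusted p = 7.9e-04). Among oxidative stress genes 13 of 25 were lower and 5 higher, or 10 and 5 of 22 without the members that reached 1 FPKM in wild-type heat alone. The glutathione transferase genes GSTF6, at 374 and 348 FPKM in the wild type and 147 and 150 FPKM in the mutant (-1.28 ± 0.053, adjusted p = 4.5e-09), and GSTU4, at 32.9 and 30.4 FPKM in the wild type and 11.2 and 10.4 FPKM in the mutant (-1.46 ± 0.081, adjusted p = 6.0e-08), were lower; GSTU4 has close copies beside it. ZAT10, a zinc finger repressor gene of early stress responses, was higher, at 20.3 and 25 FPKM in the wild type and 92.4 and 82.8 FPKM in the mutant (1.91 ± 0.10, adjusted p = 5.1e-08), as were ZAT12 (0.88) and the ferritin genes FER3 (0.52) and FER4 (0.56).

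Of 13 measured cytokinin response genes 7 were higher in the mutant after heat and 1 was lower, with a median of 0.35. The number higher was 5 without the first mutant heat library or the first wild-type heat library. All measured type-A response regulators that were called, which cytokinin induces within minutes, were among the higher genes. ARR6 was at 4.49 and 4.86 FPKM in the wild type and 12.3 and 12.6 FPKM in the mutant (1.25 ± 0.086, adjusted p = 4.8e-07), and ARR4 was at 59.6 and 56.3 FPKM in the wild type and 88.1 and 89.7 FPKM in the mutant (0.61 ± 0.055, adjusted p = 4.9e-06). ARR7 (0.56 ± 0.082, adjusted p = 2.7e-04) and ARR5 (0.59 ± 0.10, adjusted p = 9.8e-04) were higher too. The libraries of the genotypes did not overlap for these 4 genes, as for 10994 of all 16831 tested genes. In mock the ARR6 means were 13.4 and 13 FPKM. The receptor gene AHK3 (-0.26) was the lower member.

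Wall-loosening genes were split, with 6 of 17 higher and 5 lower, or 6 and 3 without the second mutant heat library or the first wild-type heat library. TCH4, a touch-induced xyloglucan endotransglucosylase gene, was at 9.72 and 11.6 FPKM in the wild type and 44.1 and 37.7 FPKM in the mutant (1.84 ± 0.094, adjusted p = 3.1e-08). PHI-1, a phosphate-induced gene of the EXORDIUM family, was at 2.5 and 2.99 FPKM in the wild type and 13.9 and 11.7 FPKM in the mutant (1.88 ± 0.12, adjusted p = 1.9e-07). In mock both were lower in the mutant, at means of 47.9 and 17.5 FPKM for TCH4 (-1.40) and 14.6 and 3.31 FPKM for PHI-1 (-1.86). SEN4, a xyloglucan endotransglucosylase gene first described in senescing leaves, was lower (-0.72 ± 0.072, adjusted p = 1.2e-05), as was EXPA10 (-0.86), an expansin gene. Of 15 gibberellin and brassinosteroid genes 4 were higher and 2 lower, turning to 1 higher and 3 lower without the second wild-type heat library and to 2 and 2 without the first mutant heat library. BR6OX2, the last synthesis step to brassinolide, was at 17.3 and 16.2 FPKM in the wild type and 8.88 and 7.97 FPKM in the mutant (-0.91 ± 0.077, adjusted p = 2.9e-06), and GA20OX1, a gibberellin synthesis gene, was at 0.659 and 0.798 FPKM in the wild type and 1.62 and 1.87 FPKM in the mutant (0.67 ± 0.13, adjusted p = 0.0025). Beside these 2 lists and the next, 11% of all tested genes were higher and 17.6% lower. Of 16 clock genes 1 was higher and 2 lower. Both counts were 0 without the second wild-type heat library, while 3 were higher under median-of-ratios scaling or with a replicate block, 4 were higher under quantile scaling, and 4 were lower with none higher when no expression minimum was set. CCA1, a morning gene, was at 4.52 and 5.26 FPKM in the wild type and 3.3 and 3.27 FPKM in the mutant (-0.46 ± 0.11, adjusted p = 0.011), a call lost without the second mutant heat library or the second wild-type heat library.

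**Figure D3:**
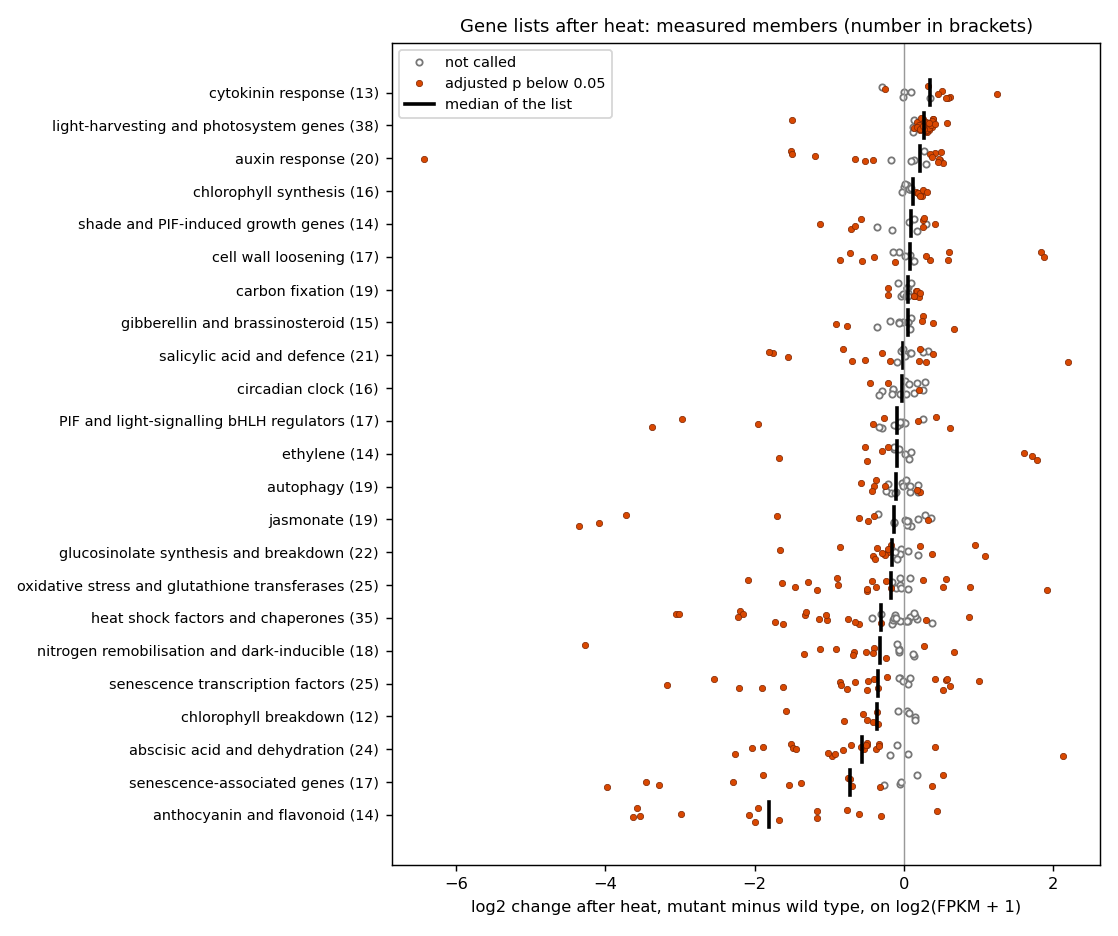
Difference after heat for each measured member of the gene lists, on the log2(FPKM + 1) scale, with lists ordered by their median; filled points were called, open points were not, and the black bar is the median. The anthocyanin list has its median at -1.81 and senescence-associated genes at -0.72, while light-harvesting genes crowd around 0.27 and most other lists spread on both sides of 0.

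Outside the lists, the differences towards lower values among named genes at 5 FPKM or more in the higher group were led by KTI1, ELI3-2 and UPI. KTI1, a Kunitz trypsin inhibitor gene, was at 90 and 100 FPKM in the wild type and 0.27 and 0.801 FPKM in the mutant (-5.99 ± 0.17, adjusted p = 1.8e-10). ELI3-2, a cinnamyl alcohol dehydrogenase gene induced by elicitors, was at 67.3 and 72.5 FPKM in the wild type and 0.0483 and 0.188 FPKM in the mutant (-5.99 ± 0.13, adjusted p = 2.1e-11), and UPI, a protease inhibitor gene, was at 42 and 46 FPKM in the wild type and 0.134 and 0.0871 FPKM in the mutant (-5.34 ± 0.12, adjusted p = 3.5e-11). In each of these 3 genes the mutant libraries were below 1 FPKM, as were the mock means of both genotypes. Their means reached the expression minimum in wild-type heat alone, so these 3 genes could hardly be other than lower. EARLI1, a lipid transfer-like gene of systemic defence priming, was at 334 and 304 FPKM in the wild type and 18 and 16.2 FPKM in the mutant (-4.14 ± 0.085, adjusted p = 1.8e-11), and TI1, a trypsin inhibitor gene, was at 232 and 235 FPKM in the wild type and 15 and 15.7 FPKM in the mutant (-3.84 ± 0.069, adjusted p = 6.3e-12). The thioredoxin gene TH8 (-4.09 ± 0.14, adjusted p = 8.7e-10) and the cellulose synthase-like gene CSLG2 (-4.25 ± 0.12, adjusted p = 2.6e-10) were below 1 FPKM in the mutant as well.

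RD20, a caleosin gene of dehydration responses, was at 86.1 and 99.9 FPKM in the wild type and 5.79 and 5.74 FPKM in the mutant (-3.79 ± 0.083, adjusted p = 2.4e-11). It was also lower in mock, at means of 19.5 and 4.78 FPKM. BAM5, the main extractable beta-amylase gene of leaves, was at 23.5 and 19 FPKM in the wild type and 0.799 and 0.518 FPKM in the mutant (-3.74 ± 0.14, adjusted p = 2.0e-09), with a smaller difference in mock (-0.59). OSM34, an osmotin-like gene, was at 16.2 and 17.4 FPKM in the wild type and at 0.122 and 0 FPKM in the mutant (-4.07 ± 0.13, adjusted p = 6.2e-10).

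Towards higher values, and by the same rule, the genes outside the lists were led by DIC2, ORA47 and CAF1a. DIC2, a mitochondrial dicarboxylate carrier gene, was at 9.9 and 8.81 FPKM in the wild type and 75.4 and 67 FPKM in the mutant (2.80 ± 0.078, adjusted p = 1.8e-10). ORA47, a regulator gene of jasmonate synthesis, was at 4.88 and 5.54 FPKM in the wild type and 39.9 and 32 FPKM in the mutant (2.56 ± 0.11, adjusted p = 4.8e-09). CAF1a, which encodes a deadenylase that shortens messenger tails, was at 16.4 and 18 FPKM in the wild type and 96.1 and 84.2 FPKM in the mutant (2.33 ± 0.11, adjusted p = 1.2e-08). The mutant heat libraries were above all other libraries for these 3 genes, and DIC2 and ORA47 were also higher in mock (0.74 and 0.94).

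The nudix hydrolase gene NUDT4 was at 4.21 and 4 FPKM in the wild type and 23 and 22.7 FPKM in the mutant (2.22 ± 0.10, adjusted p = 6.0e-09), and its relative NUDT21 was at 14.4 and 15.5 FPKM in the wild type and 70.8 and 63.5 FPKM in the mutant (2.09 ± 0.10, adjusted p = 1.7e-08). PP2-A5, a phloem lectin-like gene, was at 1.39 and 0.865 FPKM in the wild type and 9.5 and 7.32 FPKM in the mutant (2.15 ± 0.16, adjusted p = 9.4e-07), and RTFL12, of a family of small peptides, was at 0.957 and 0.773 FPKM in the wild type and 6.17 and 6.79 FPKM in the mutant (2.00 ± 0.12, adjusted p = 9.7e-08). ERF13 was at 0.884 and 0.714 FPKM in the wild type and 5.1 and 5.7 FPKM in the mutant (1.83 ± 0.12, adjusted p = 3.5e-07), with a difference of about the same size in mock (1.57). RL3, a small MYB-like gene, was at 5.57 and 6.33 FPKM in the wild type and 26.9 and 20.7 FPKM in the mutant (1.83 ± 0.10, adjusted p = 7.5e-08). QQS, an Arabidopsis gene that affects starch content, was at 12.8 and 10.7 FPKM in the wild type and 49.4 and 49.8 FPKM in the mutant (1.99 ± 0.079, adjusted p = 3.2e-09), and its difference was larger in mock (2.97).

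**Figure D4:**
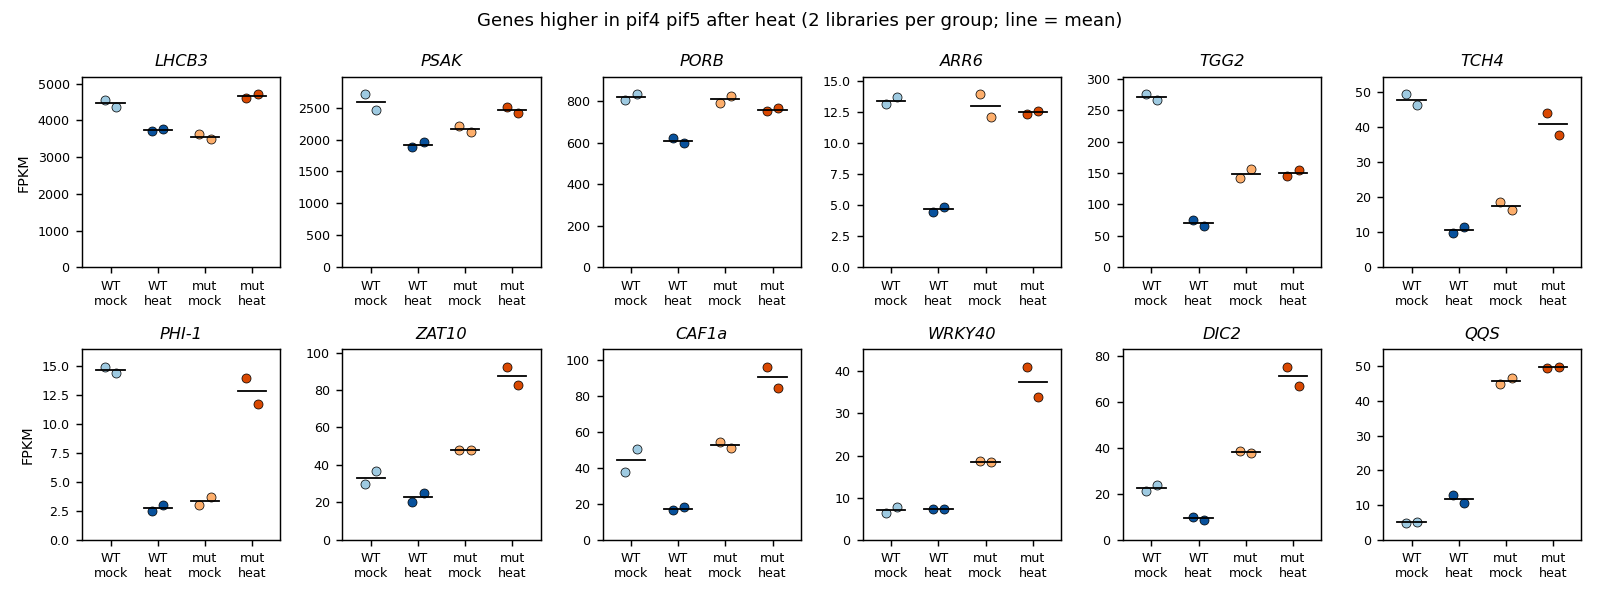
FPKM of 12 genes that were higher in the mutant after heat, in each of the 8 libraries; points are libraries, the line is the mean of 2, and each vertical axis starts at 0. PSAK, PORB and ARR6 were lowest in wild-type heat, LHCB3 was lowest in mutant mock, DIC2, CAF1a, ZAT10 and WRKY40 were highest in mutant heat, and TCH4, PHI-1 and TGG2 were higher in the mutant after heat but lower in mock.

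The mock libraries, which share no library with the heat comparison, were compared in the same way. In mock 2185 genes (13%) were higher in the mutant and 1294 (7.69%) lower. This balance depended on the scaling, with 1308 higher and 1795 lower under median-of-ratios scaling and 1380 higher and 1548 lower under quantile scaling; the median of all genes in mock was 0.063 as deposited, 0.0078 and 0.0095. Of the 2959 genes lower after heat, 328 were also lower in mock (11.1% of the heat list and 25.3% of the mock list), 572 were higher in mock and 2059 were not called there. Of the 1855 genes higher after heat, 345 were also higher in mock, 316 were lower and 1194 were not called. The interaction, which tests whether the genotype difference changed with heat, was called towards higher values for 1732 genes (10.3%) and towards lower values for 3639 (21.6%). The median of all genes in it was -0.10 on the deposited scale and 0.024 after quantile scaling, where 2470 genes were higher and 2248 lower. Counts of list members in mock and for the interaction were made on the deposited scale alone. Whether those counts depend on the scaling was not tested.

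The 454 genes lower by at least 2-fold had median levels of 7.95 FPKM in wild-type heat and 1.57 FPKM in mutant heat. The mock libraries entered the choice only through the expression minimum and the pooled spread. Their medians were 1.16 FPKM in the wild type and 1.5 FPKM in the mutant, against 10.2 and 10.8 FPKM over all tested genes. Genes that reached the minimum in wild-type heat alone are low in mock by that rule. For the 454 genes the median mock difference was 0.07, with 96 called higher and 59 called lower in mock. The interaction was called towards lower values for 425, but it holds the heat values that chose these genes. The 95 genes higher by at least 2-fold had median levels of 6.91 FPKM in wild-type mock and 9.75 FPKM in mutant mock, and 48 of them were called higher in mock and 10 lower. By chromosome, the genes lower by at least 2-fold made up between 2.3% (chromosome 5) and 3.45% (chromosome 2) of the tested genes.

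**Figure D5:**
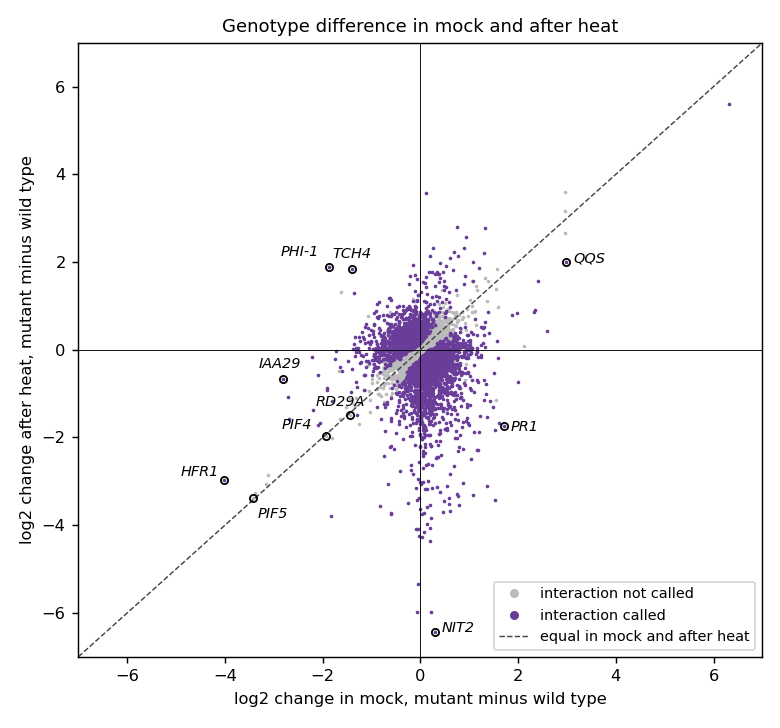
Genotype difference in mock (horizontal) against the difference after heat (vertical) for the 16831 tested genes, both mutant minus wild type on the log2(FPKM + 1) scale; purple points had a called interaction and the dashed line marks equal differences. PIF4, PIF5 and RD29A lie on the line, NIT2 lies near 0 in mock and at -6.43 after heat, and TCH4 and PHI-1 lie on opposite sides in mock and after heat.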

How the data were processed

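Total RNA of rosette leaves was made into strand-specific libraries, per the labels' protocols. The authors deposited FPKM values in 1 table of 34354 rows and 8 library columns. TopHat, TopHat2, edgeR and the build TAIR10 are listed, per the submitters' processing notes; the sources used here do not name the counter, its annotation or its use of strand. Of the rows, 32548 matched a locus of the TAIR10.1 annotation.

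Here log2(FPKM + 1) was fitted with limma 3.58.1 in R 4.3.3 (lmFit, eBayes with an intensity trend) as 4 group means over 8 libraries, leaving 4 residual degrees of freedom, for the 16831 genes that reached 1 FPKM in 2 or more libraries. Tests were two-sided, with Benjamini-Hochberg adjustment over all genes. Scaling to library totals means that abundant genes that move shift all other FPKM values. Whole reads recovered from the FPKM steps (100.0% of 23543 rows above 0, within 0.02 reads) gave 16852240 to 29535916 reads per library and were tested with limma-voom, which called 4774 genes after heat.

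Members and lists were chosen with earlier results of these data known. Named genes are key genes, up to 4 called members per list with the smallest p, and outside the lists the 10 largest called differences in each direction with a symbol, non-overlapping libraries and at least 5 FPKM in the higher group, plus 6 interactions in each direction; other members are named as values. Of 547 list entries 546 were in the table, and AOP2 is not analysed here. As alternatives, the pseudocount, the filter, the scaling, the trend, a block for replicate numbers, the set of groups fitted and the libraries included were changed in turn. Figures were drawn with matplotlib 3.10.9.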

Additional observations from a re-analysis of the deposited data

Results flagged for a closer look

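The genotype difference itself changed with heat, by the test of the interaction (the difference after heat minus the difference in mock, limma, Benjamini-Hochberg adjusted p below 0.05), for 5371 of the 16831 genes. The interaction uses the same heat libraries as the comparison reported above and is not independent of it. Its values below are on the log2(FPKM + 1) scale.

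Among the genes named for their role, the interaction was negative for NAC019 (-3.26), SAG113 (-1.40), SAG13 (-4.03), NYE1 (-0.45), PAO (-0.41), PR1 (-3.45), PDF1.2 (-3.80), HSP18.2 (-2.34), HSP101 (-1.20), DFR (-3.73), CHS (-2.74), NIT2 (-6.72) and EARLI1 (-4.21). It was positive for IAA29 (2.14), CBF2 (1.69) and LHCB2.1 (1.01). The SAG113 value rests on few reads outside wild-type heat, where the mean was 0.484 FPKM in wild-type mock and 0.0566 FPKM in mutant mock. By limma-voom on the recovered reads it was -1.46 with an adjusted p of 0.2.

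The genes outside the lists with the largest interaction towards lower values were KTI1 (-6.21), ELI3-2 (-5.91), UPI (-5.30), JRG21 (-4.39), OSM34 (-4.27) and AGP2 (-4.26). JRG21, a jasmonate-regulated oxygenase gene, was at 68.7 and 72.9 FPKM in the wild type and 6.55 and 5.98 FPKM in the mutant after heat and at means of 1.77 and 4.88 FPKM in mock. AGP2, an arabinogalactan protein gene, was at 32.7 and 38.4 FPKM in the wild type and 2.13 and 1.63 FPKM in the mutant after heat and at means of 1.12 and 2.15 FPKM in mock.

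Towards higher values they were DREB26 (2.65), DIC2 (2.06), CAF1a (2.06), TCH2 (1.90), MYB77 (1.81) and THI2.2 (1.71). DREB26, a gene of the CBF-related DREB family, was higher in the mutant after heat, at 3.3 and 2.91 FPKM in the wild type and 10.2 and 8.07 FPKM in the mutant, and lower in mock, at means of 9.96 and 3.28 FPKM. THI2.2, a thionin gene, did not differ detectably after heat (-0.03 ± 0.10, adjusted p = 0.86), at 6.31 and 7.09 FPKM in the wild type and 6.02 and 7.08 FPKM in the mutant, and in mock it was at 18.1 and 18.3 FPKM in the wild type and 4.45 and 5.1 FPKM in the mutant. TCH2, a calmodulin-like gene induced by touch, was at 11.7 and 11.4 FPKM in the wild type and 41.5 and 36.7 FPKM in the mutant after heat, and MYB77 was at 5.39 and 6.57 FPKM in the wild type and 16.3 and 13.3 FPKM in the mutant.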

How the results depend on the processing

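The count of genes called after heat, 4814 on the deposited scale, lay between 4135 and 5141 under the other filters, scalings, pseudocount and models except without an intensity trend (3988), and between 3171 (without the first wild-type heat library) and 4943 when a library was left out. Genes called and changed by at least 2-fold numbered 549, with 840 by limma-voom on the recovered reads and 838 with a pseudocount of 0.1 FPKM, where low genes count for more; leaving out a library gave 549 to 578. Calls in mock numbered 3479 and fell to 1781 without the first wild-type mock library and 1836 without the second mutant mock library, with up to 3236 otherwise. Leaving out a library gave 3919 to 5190 interaction calls in place of 5371. Replicate numbers were not shown to pair the samples: deviations of same-numbered libraries correlated at -0.03 to 0.19 between groups (-0.00 between the heat groups), and with a replicate block 5141 genes were called after heat, 550 by at least 2-fold, 3878 in mock and 5645 for the interaction.

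Of the 143 named genes tested after heat, 125 kept their direction and side of the threshold in each alternative that gave a value; PIF4, PIF5, NAC019, SAG13, SAG113, PAO, DFR, NIT2 and EARLI1 were among them. Apart from the key genes, the named genes were picked by p-value or size of difference in these data. The share of 125 in 143 therefore does not describe called genes in general. Quantile scaling turned LHCB2.1 to -0.047, RBCS1A to -0.081 (its interaction likewise to -0.081) and CAB2 to -0.011. THI2.2 turned to 0.0023 under median-of-ratios scaling and 0.05 under quantile scaling, and ranged from -0.13 to 0.072 over the left-out libraries, as CDKB2;1 did from -0.066 to 0.19. The interaction of PIF4, near 0, was 0.078 under median-of-ratios scaling, 0.033 under quantile scaling and -0.071 to 0.03 over left-out libraries, and that of PIF5 was -0.063 to 0.15. The cause of these moves was not tested. With 2 libraries a group, a spread that differs between genotypes cannot be measured, and differences of genes near 1 FPKM rest on few reads.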

Other observations

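A small set of transcripts differed between the genotypes by at least 4-fold in both conditions with no called interaction: 7 rows, 3 higher and 4 lower in the mutant. PIF5 is 1 of them. MAF5 (AT5G65080, chromosome 5), a MADS-box gene of the flowering repressor clade around FLC, was at 16.5 and 17.1 FPKM in the wild type and 0.845 and 1.49 FPKM in the mutant after heat, and at means of 16.1 and 0.913 FPKM in mock. The RNA gene AT3G05945 (chromosome 3) was at 64.4 and 70 FPKM against 5.98 and 6.2 FPKM after heat, and AT3G06355 (chromosome 3), which overlaps AT3G41979, was at 14.8 and 19.8 against 1.46 and 1.54 FPKM. AT1G75945 (chromosome 1), an uncharacterised protein gene, was at 0.508 and 0.123 FPKM in the wild type and 10.3 and 11.1 FPKM in the mutant after heat. AT4G05275 (chromosome 4), an RNA gene, was at 0 and 0.471 FPKM against 15 and 12.6 FPKM, and was listed at 0 in wild-type mock. The last row, Novel00023, has no match in the annotation.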
